A study of Homo sapiens with 4 samples.

Results

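Lysine acetylation of histones is written by acetyltransferases, removed by deacetylases and bound by proteins with a bromodomain. The 30 genes described here were chosen by name, from a list drawn up with earlier results of these data known. They are 17 acetyltransferases, 11 deacetylases of the HDAC family and the BET readers BRD2 and BRD3, and each was found once among the 29833 genes of the deposited expression table. RNA-seq was performed in Reh-6-MPR cells, a line of Reh made resistant to 6-mercaptopurine (6-MP). Reh is an established line from human B-cell precursor leukemia (B-ALL), a disease treated with the thiopurine 6-MP. The labels give the genotype of all cells as wild type. A library each was made from cells treated for 48 h with PBS as vehicle (labelled Blank), with 4 mM histidine, with 1.0 μg/mL 6-MP, or with histidine and 6-MP together at these doses, called the combined library below. The comparisons ask how the response to 6-MP differs when histidine is added, in a resistant line that represents only itself.

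Acetyltransferases transfer the acetyl group of acetyl-CoA to lysine, which loosens the contact of the histone tail with DNA and makes a docking site for bromodomains. Deacetylases of class I sit in nuclear corepressor complexes, whereas those of class IIa shuttle between nucleus and cytoplasm and act largely as scaffolds. CREBBP is recurrently mutated in relapsed B-cell acute lymphoblastic leukemia, and deacetylase inhibitors are used in lymphoid malignancies.

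The values are FPKM, a read count scaled for sequencing depth and for a length per gene. Levels compared between genes depend on that length, which was long for some genes. HDAC1 and HDAC2 had 4359 and 4250 reads in vehicle, over recovered lengths of 3966 and 15333 bases. Sums of FPKM and shares between genes carry this dependence, whereas read ratios of the same gene between libraries do not. The libraries held 14316493 reads (vehicle), 15486376 (histidine), 15342296 (6-MP) and 12899122 (combined). With 1 library for each treatment there is no replicate check and no P value, and every difference below is one between libraries. Intervals in square brackets are exact Clopper-Pearson 95% intervals, either of a ratio of recovered reads relative to the library totals or of a share within a pair of genes, and they cover counting error only. In bulk RNA, fewer cells that express a gene and less RNA per cell cannot be told apart. Of 10 markers of B-cell precursors, 9 were measured, and they summed to 1535, 1547, 1628 and 1546 FPKM in the order vehicle, histidine, 6-MP and combined. All 4 myeloid markers were measured and summed to 28.8, 31.2, 27.0 and 43.7 FPKM in the same order, nearly all of it MPO (27.7, 30.5, 26.5 and 41.0 FPKM). LYZ had 0.324, 0.0375, 0.113 and 1.39 FPKM and CSF1R had 0.624, 0.627, 0.430 and 1.25, so that MPO, LYZ and CSF1R were all highest in the combined library, while CD14 was at or below 0.17 FPKM in every library. The erythroid marker HBB was at 0 in 3 libraries and near 0 in the histidine library, and the T-cell markers were not analysed here. The myeloid sum was thus highest in the combined library, and its part in the results below was not tested.

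The upstream sequences of 4 genes are shown because these genes carry the results. KAT2B had the largest difference among the genes compared here, KAT2A is its closest paralog, GTF3C4 was lowest in the combined library relative to the others, and HDAC11, below the limit for a comparison, had more reads in the combined library than in each of the others. Each is the 250 bases before the RefSeq start on GRCh38.p14, written 5′ to 3′ on the strand of the gene. Capitals mark matches to the motifs CACGTG (the E-box), CCAAT (the CAAT motif), GGGCGG (the GC-box), CCGGAA (the ETS motif), TGACGTCA (the cyclic AMP response element) or TATAAA (the TATA motif), on either strand. The windows are chr3:20040196-20040445 (plus strand) for KAT2B, chr17:42121368-42121617 (minus strand) for KAT2A, chr9:132669785-132670034 (plus strand) for GTF3C4 and chr3:13480056-13480305 (plus strand) for HDAC11. The HDAC11 start in RefSeq lies 582 bases from the start of the gene in the deposited table. Larger distances, of 40160 and 13229 bases, were found for HDAC2 and HDAC7, whose windows are counted below and may not be the promoters in use.
KAT2B: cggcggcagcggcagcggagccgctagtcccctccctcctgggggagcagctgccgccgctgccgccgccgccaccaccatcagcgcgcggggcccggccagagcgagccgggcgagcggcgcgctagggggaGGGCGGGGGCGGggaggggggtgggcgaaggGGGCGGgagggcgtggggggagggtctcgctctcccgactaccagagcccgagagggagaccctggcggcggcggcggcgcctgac
KAT2A: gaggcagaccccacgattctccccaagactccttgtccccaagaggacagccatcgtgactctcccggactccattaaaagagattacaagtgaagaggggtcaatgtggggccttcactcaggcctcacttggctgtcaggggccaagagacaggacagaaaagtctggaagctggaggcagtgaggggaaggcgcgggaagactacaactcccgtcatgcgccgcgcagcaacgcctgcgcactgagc
GTF3C4: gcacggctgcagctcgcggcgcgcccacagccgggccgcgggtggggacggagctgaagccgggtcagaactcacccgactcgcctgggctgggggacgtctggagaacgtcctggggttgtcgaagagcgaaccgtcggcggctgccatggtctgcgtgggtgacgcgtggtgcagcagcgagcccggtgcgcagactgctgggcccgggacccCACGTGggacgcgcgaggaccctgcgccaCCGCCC
HDAC11: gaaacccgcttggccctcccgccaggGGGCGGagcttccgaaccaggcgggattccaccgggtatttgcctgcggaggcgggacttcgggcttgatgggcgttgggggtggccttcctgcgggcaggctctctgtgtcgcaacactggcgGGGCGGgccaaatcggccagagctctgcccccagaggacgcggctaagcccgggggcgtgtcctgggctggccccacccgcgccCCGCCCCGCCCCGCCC

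KAT2B held 3 GC-box matches, 2 of which lie side by side, and 80.8% of its bases were G or C. KAT2A held no match to any of the 6 motifs and had a GC content of 58.8%. GTF3C4 held 1 E-box and 1 GC-box, and HDAC11 held 5 GC-boxes, 3 of which overlap by 1 base at its end. The promoter table held 24 of the 30 genes, and ATF2, ELP3, HDAC5, KAT6A, KAT8 and NCOA2 were not among them. For these 24 the RefSeq start nearest the deposited gene start was taken, but for the shares of all and tested genes the first listed start. The 24 also include KAT6B, HDAC8, HDAC10 and HDAC11, which were not tested. The shares below are therefore not strictly alike. A GC-box was found in 14 of these 24 windows (58.3%), against 42.3% of 27305 genes in the table and 68.7% of the 8558 that were tested here. ETS letters were found in 8 windows (33.3%, against 14.8% of all and 27.3% of tested genes). E-box letters were found in 3 windows (12.5%, against 6.49% and 9.21%), namely those of GTF3C4, HDAC4 and KAT5. CCAAT was found in 3 windows as well (12.5%, against 33% and 36.4%), in HAT1, HDAC1 and HDAC10. No window held the cyclic AMP response element or the TATA motif, which are in 1.77% and 11.1% of all genes and in 2.99% and 4.76% of tested genes. The median GC content was 72% for the 24 genes, 58% for all genes and 65.2% for tested genes. No motif was shared by all 4 sequences above, and a match is a description of letters, not a binding site.

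Most of these genes were expressed well above the middle of the transcriptome. Of the 30 genes, 26 averaged 1 FPKM or more across the libraries, the limit for a comparison here, and 21 of these were above the median of all 12750 tested genes (6.48 FPKM). KAT6B, HDAC8, HDAC10 and HDAC11 were below the limit. KAT6B and HDAC8 had 122 to 271 and 170 to 253 reads, over recovered lengths of 32495 and 22888 bases. Passing the limit thus depends on the length as well. HDAC1, the catalytic core of several corepressor complexes, was the highest, with a mean FPKM of 75.1, and HDAC9 the lowest of those tested with 2.28. The FPKM of the 17 acetyltransferases summed to 191.0, 191.0, 194.0 and 196.5 in vehicle, histidine, 6-MP and combined. The 11 deacetylases summed to 166.9, 164.3, 160.4 and 177.2 FPKM. The ratio of deacetylases to acetyltransferases was therefore 0.874, 0.860, 0.827 and 0.902, highest in the combined library. From vehicle to combined, class IIa went from 48.3 to 59.6 FPKM, and class I from 110.4 to 107.5. The ratio is one of summed RNA levels and does not measure enzyme activity. HDAC1 alone made up 43.4% to 46.2% of the deacetylase sum.

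**Figure D1:**
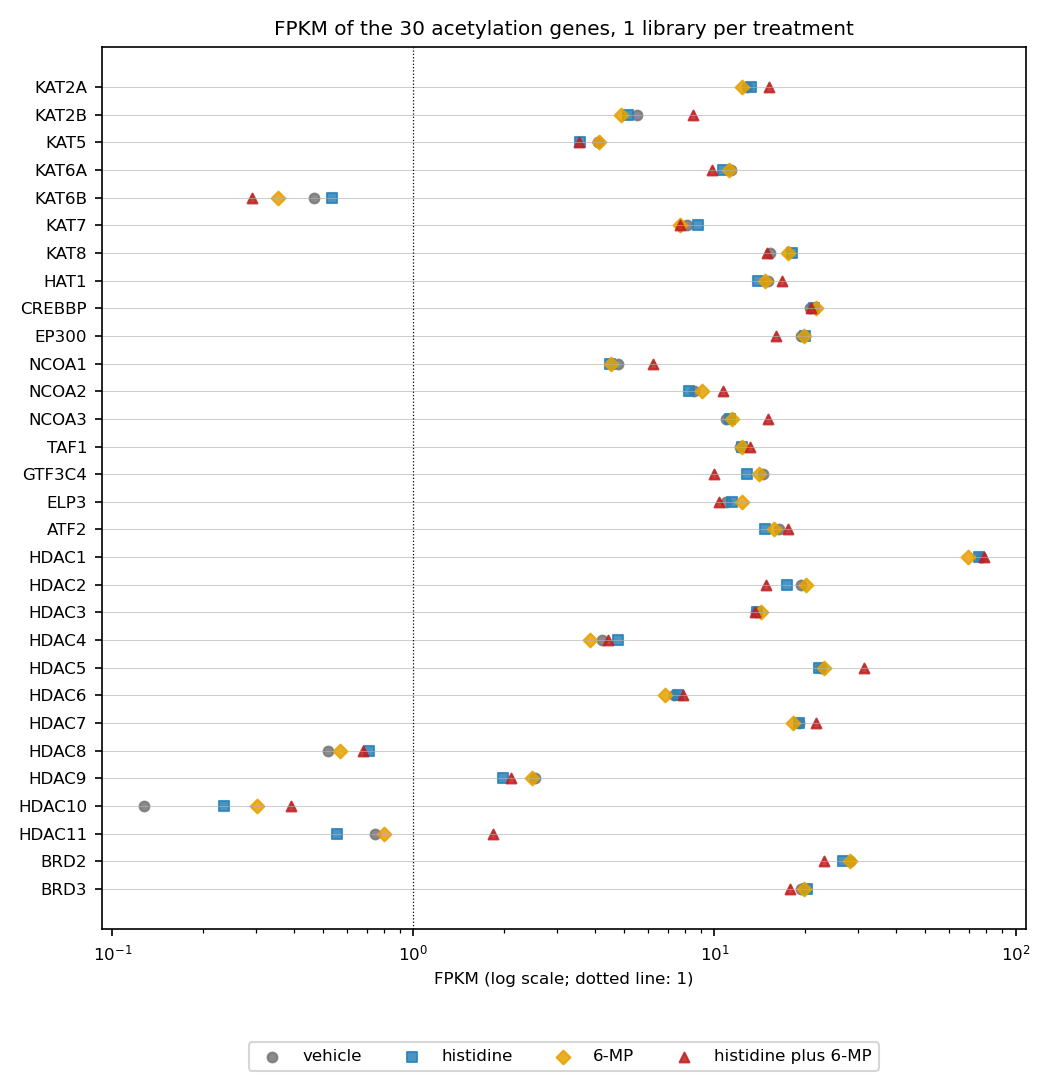
FPKM of the 30 genes (log scale), 1 point for each of the 4 libraries, with the dotted line at 1 FPKM. The combined library sits to the right of the others for KAT2B, the NCOA genes, HDAC5 and HDAC11, and to the left for GTF3C4, HDAC2, EP300 and BRD2.

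Fold changes are differences of log2(FPKM + 1), which understate the change of low genes, and a gene was called at an absolute difference of at least 0.5. KAT2B was the only one of the 26 called in any comparison. It was higher in the combined library than in each of the others, 1 of 26 genes in each comparison, where 19.3% of all tested genes were called higher against 6-MP, 17.8% against histidine and 19.7% against vehicle. None of the 26 was called lower, beside 6.88%, 7.53% and 7.37% of all tested genes. Both statements depend on the scaling, since scaling by median ratios brings GTF3C4 (-0.59 and -0.63) and HDAC2 (-0.56 and -0.51) past the threshold against 6-MP and vehicle. Calls in either direction among the 7369 genes averaging 5 FPKM or more made up 21.3%, 21.1% and 21.8%. At a difference of 1, none of the 26 was called, beside 6.02%, 5.55% and 6.53%. The study set its log2 fold change of 1 in DESeq2 and together with an adjusted P value, which is another measure. The 3 comparisons share the combined library and are not independent.

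The median fold change of the 26 genes was 0.036 against 6-MP, 0.022 against histidine and 0.017 against vehicle. The corresponding medians of all tested genes were 0.13, 0.11 and 0.13. Among genes averaging 5 FPKM or more, the medians of the acetylation genes were 0.077, 0.047 and 0.029 and those of all such genes 0.060, 0.054 and 0.065, so that the order against 6-MP turned. Across the 26 genes, values against 6-MP lay between -0.46 and 0.69, those against histidine between -0.33 and 0.62, and those against vehicle between -0.49 and 0.54. Over all tested genes, the 5th to 95th percentiles ran from -0.59 to 0.98, from -0.62 to 0.92 and from -0.61 to 1.00. All 26 genes lay inside these limits. The combined library as a whole stood apart in scale, with a median ratio to the mean of all libraries of 0.12 on the log2 scale, against -0.04, -0.02 and -0.03 for vehicle, histidine and 6-MP. Differences of this size are therefore read below against the median gene.

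**Figure D2:**
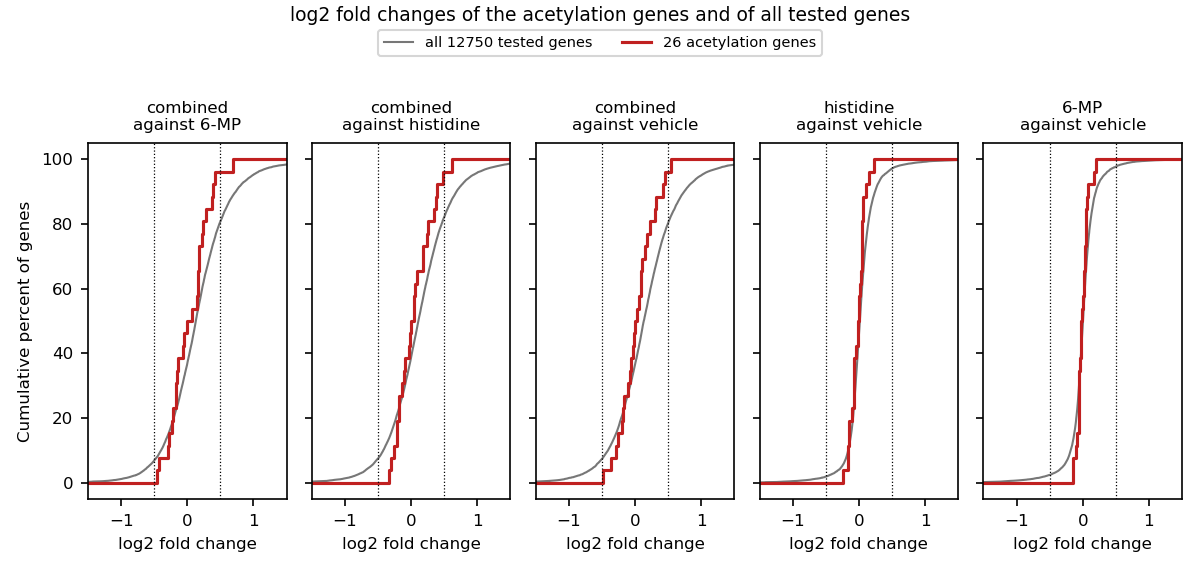
Cumulative percent of genes (vertical axis) by log2 fold change (horizontal axis, with the tails left out) in the 5 comparisons, for the 26 acetylation genes and all 12750 tested genes. Dotted lines mark -0.5 and 0.5, and only the step of KAT2B passes 0.5 in the 3 panels with the combined library.

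KAT2B (PCAF, ENSG00000114166, chromosome 3, 20040446 to 20154404, plus strand) is an acetyltransferase of the ATAC and SAGA type complexes. It stood at 5.51 FPKM (411 reads) in vehicle, 5.18 (418 reads) in histidine, 4.89 (391 reads) in 6-MP and 8.48 (570 reads) in the combined library. The 3 other libraries lay within 0.14 of each other on the log2 scale, and the combined library stood 0.54 above the highest of them. The combined library was 1.73-fold the 6-MP level (log2 ratio of reads 0.79 [0.61 to 0.98]), 1.64-fold the histidine level (0.71 [0.53 to 0.90]) and 1.54-fold the vehicle level (0.62 [0.44 to 0.81]). All 3 intervals lay above the ratio of the median gene, which was 0.16, 0.13 and 0.16. Of all tested genes, 13% were set apart above every other library by at least 0.5, and KAT2B was 1 of 26 here. After scaling by median ratios, its fold change was 0.56, 0.50 and 0.41, so that the call against vehicle was lost.

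KAT2A (GCN5), the paralog of KAT2B, had 12.8, 13.3, 12.3 and 15.1 FPKM in vehicle, histidine, 6-MP and combined. Its fold changes in the combined library were 0.28, 0.18 and 0.22 against 6-MP, histidine and vehicle, none of which was called. The log2 ratio of reads against 6-MP was 0.30 [0.15 to 0.45], an interval that includes the median gene. KAT2B accordingly made up 30.02% [27.5 to 32.7] of the KAT2A and KAT2B sum in vehicle, 28.1% [25.7 to 30.6] in histidine, 28.4% [25.9 to 31.0] in 6-MP and 35.9% [33.4 to 38.5] in the combined library. The last interval overlapped none of the others. A share within a pair does not depend on the scaling of a library.

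The 3 nuclear receptor coactivators are scaffolds that recruit CREBBP and EP300 to receptors. All were highest in the combined library, as were 53.8% of all tested genes. NCOA3 (SRC-3) had 10.9, 11.3, 11.4 and 15.0 FPKM, with 1316, 1471, 1472 and 1631 reads, in vehicle, histidine, 6-MP and combined. Its log2 ratio of reads was 0.40 [0.30 to 0.50], 0.41 [0.31 to 0.52] and 0.46 [0.35 to 0.57] against 6-MP, histidine and vehicle. NCOA1 (SRC-1) had 4.80, 4.51, 4.55 and 6.25 FPKM, with a ratio of 0.46 [0.30 to 0.61] against 6-MP. NCOA2 (SRC-2) had 8.52, 8.25, 9.07 and 10.7 FPKM, with a ratio of 0.24 [0.13 to 0.35] against 6-MP, an interval that includes the median gene. Against histidine and vehicle its ratios were 0.37 [0.26 to 0.49] and 0.33 [0.22 to 0.44], both above the median gene. None of the 3 reached the fold of 0.5. Scaling by median ratios lowered the fold change of all 3 against 6-MP. NCOA3 went from 0.37 to 0.23, NCOA1 from 0.39 to 0.26 and NCOA2 from 0.22 to 0.08. Their summed FPKM was 24.2, 24.0, 25.0 and 32.0. The share of NCOA3 in that sum stayed between 45.1% and 47.0%.

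CREBBP and EP300, the paralogous acetyltransferases of enhancers, parted in the combined library. CREBBP had 20.8, 21.4, 21.7 and 20.9 FPKM in vehicle, histidine, 6-MP and combined, with 4170 to 5147 reads. EP300 had 19.4, 20.04, 19.8 and 16.0 FPKM, and its log2 ratio of reads was -0.30 [-0.38 to -0.23], -0.32 [-0.40 to -0.25] and -0.28 [-0.35 to -0.20] against 6-MP, histidine and vehicle. EP300 made up 48.3% [47.2 to 49.4], 48.3% [47.3 to 49.4] and 47.7% [46.7 to 48.8] of the pair in vehicle, histidine and 6-MP, and 43.4% [42.2 to 44.7] in the combined library. The interval of the combined library lay below the other 3, while the fold change of EP300 (-0.26 to -0.30) did not reach the threshold.

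The MYST enzymes serve among others the NuA4 type, HBO1 and MSL complexes. All were lowest in the combined library, as were 28.8% of all tested genes. KAT5, KAT7 and KAT8 were so only by -0.0038, -0.0043 and -0.02 from the nearest library, and these signs turn under another scaling. KAT8 (MOF) is a histone H4 acetyltransferase of the MSL and NSL complexes. It was the highest of the MYST enzymes with 15.2, 18.1, 17.6 and 15.0 FPKM in vehicle, histidine, 6-MP and combined. It was thus higher with either agent alone than in vehicle, with log2 ratios of reads of 0.25 [0.14 to 0.36] for histidine and 0.21 [0.10 to 0.32] for 6-MP. KAT8 shares its locus with a pair of long non-coding genes on the same strand at 14.1 to 17.02 and 2.16 to 3.35 FPKM, whose reads could be shared. KAT6A (MOZ) had 11.3, 10.7, 11.1 and 9.81 FPKM, KAT7 (HBO1) 8.09, 8.84, 7.71 and 7.68 FPKM, and KAT5 (TIP60) 4.10, 3.56, 4.12 and 3.55 FPKM. RNASEH2C, which overlaps KAT5 on the opposite strand, had 18.5, 19.05, 19.3 and 18.5 FPKM, and its part in the value of KAT5 was not tested. KAT6B (MORF) was at 0.466, 0.539, 0.355 and 0.291 FPKM, below the limit for a comparison, with 122 to 271 reads. It made up 2.88% to 4.79% of the KAT6A and KAT6B sum.

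**Figure D3:**
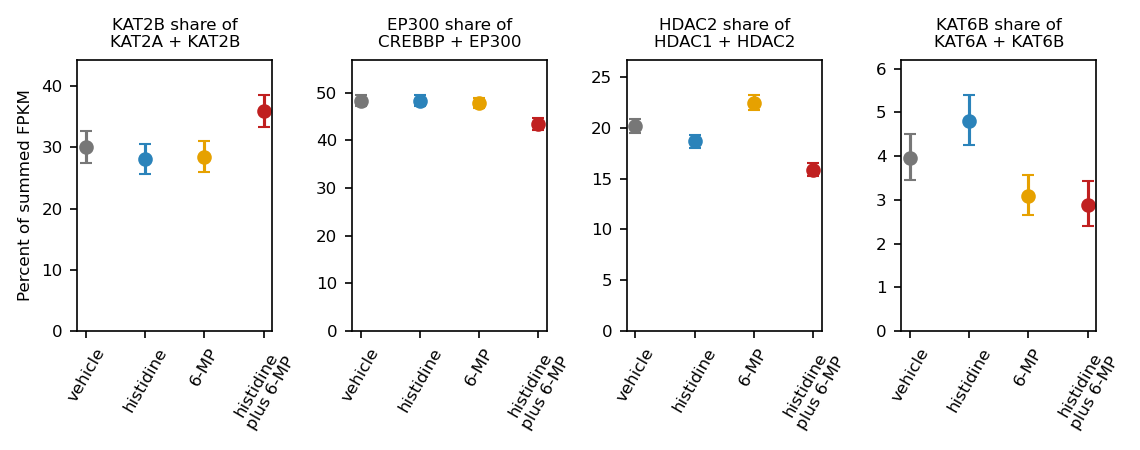
Share of 1 paralog in the summed FPKM of its pair (percent) in each of the 4 libraries, with exact 95% counting intervals. The combined library is highest for KAT2B (35.9%) and lowest for EP300 (43.4%) and HDAC2 (15.9%), with intervals apart from the other libraries, while for KAT6B its interval overlaps that of 6-MP.

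The remaining acetyltransferases have roles outside the classical families. GTF3C4, a subunit of the RNA polymerase III factor TFIIIC, had 14.5, 12.8, 14.1 and 10.0 FPKM in vehicle, histidine, 6-MP and combined, with 1871, 1794, 1955 and 1166 reads. The log2 ratio of reads was -0.50 [-0.60 to -0.39], -0.36 [-0.47 to -0.25] and -0.53 [-0.64 to -0.43] against 6-MP, histidine and vehicle, the lowest of the 26 genes in each comparison. Its fold changes of -0.46, -0.33 and -0.49 were just short of the threshold in 2 comparisons, and scaling by median ratios took them to -0.59, -0.45 and -0.63. DDX31 on the opposite strand had 7.77, 6.95, 6.73 and 6.51 FPKM, and whether strand was used in counting is not given in the sources used here. HAT1, the type B enzyme that acetylates newly made histone H4, had 15.0, 14.0, 14.7 and 16.8 FPKM. ATF2, a CRE-binding transcription factor, had 16.4, 14.7, 15.8 and 17.5 FPKM. TAF1, the largest subunit of TFIID, had 12.2, 12.3, 12.4 and 13.1 FPKM, and its near-identical copy TAF1L had 1 read in the 6-MP library and 0 in the others. ELP3, the catalytic subunit of Elongator, had 10.9, 11.4, 12.3 and 10.3 FPKM, and was higher with 6-MP than with vehicle by a log2 ratio of reads of 0.18 [0.05 to 0.32].

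Among the class I deacetylases, HDAC1 and HDAC2 share the same complexes. HDAC1 had 76.8, 75.8, 69.6 and 78.4 FPKM in vehicle, histidine, 6-MP and combined, and 4009 to 4656 reads. It was lower with 6-MP than with vehicle by a log2 ratio of reads of -0.14 [-0.20 to -0.08]. HDAC2 had 19.4, 17.4, 20.2 and 14.8 FPKM, with 4250, 4132, 4749 and 2929 reads, and was lowest in the combined library. Its log2 ratio of reads was -0.45 [-0.51 to -0.38], -0.23 [-0.30 to -0.16] and -0.39 [-0.46 to -0.32] against 6-MP, histidine and vehicle. The fold changes were -0.42, -0.22 and -0.37, and scaling by median ratios took them to -0.56, -0.34 and -0.51, past the threshold in 2 of 3. HDAC2 made up 20.1% [19.5 to 20.8], 18.7% [18.0 to 19.3], 22.5% [21.8 to 23.2] and 15.9% [15.3 to 16.5] of the HDAC1 and HDAC2 sum, and no pair of these 4 intervals overlapped. The other 3 libraries therefore differed among themselves in this share as well. HDAC3, the enzyme of the NCOR complexes, ranged only from 13.7 to 14.3 FPKM. HDAC8 was at 0.519 to 0.714 FPKM. The summed FPKM of class I was 110.4, 107.8, 104.6 and 107.5.

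The class IIa deacetylases were led by HDAC5 and HDAC7. HDAC5 had 22.5, 22.3, 23.2 and 31.4 FPKM in vehicle, histidine, 6-MP and combined, with 2458, 2626, 2706 and 3083 reads, and was 1.36-fold, 1.41-fold and 1.39-fold higher in the combined library than in 6-MP, histidine and vehicle. Its log2 ratio of reads was 0.44 [0.36 to 0.51], 0.50 [0.42 to 0.57] and 0.48 [0.40 to 0.55] in these comparisons, all above the median gene. The 3 other libraries lay within 0.05 of each other on the log2 scale, and the fold change of 0.42 to 0.48 fell short of 0.5. Scaling by median ratios took it to 0.28, 0.35 and 0.31 against 6-MP, histidine and vehicle. HDAC7, an HDAC known for its role in B-cell precursors, had 19.0, 19.1, 18.3 and 21.7 FPKM. SLC48A1, which overlaps HDAC7 on the opposite strand, had 4.963, 5.416, 5.215 and 8.87 FPKM, and its part in the value of HDAC7 was not tested. HDAC4 had 4.22, 4.80, 3.86 and 4.43 FPKM, with the combined library inside the range of the others, and HDAC9 had 2.53, 1.99, 2.48 and 2.11 FPKM. The class summed to 48.3, 48.2, 47.8 and 59.6 FPKM. HDAC5 made up 46.7%, 46.2%, 48.5% and 52.6% of that sum.

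In class IIb, HDAC6, the cytoplasmic tubulin deacetylase, had 7.32, 7.55, 6.85 and 7.85 FPKM. HDAC10, known as a polyamine deacetylase, had only 9, 18, 23 and 25 reads, and it overlaps MAPK12 on the same strand (4.28 to 5.48 FPKM). HDAC11 (class IV, ENSG00000163517, chromosome 3, 13479724 to 13506424, plus strand), known as a fatty-acid deacylase, was at 0.748, 0.555, 0.797 and 1.84 FPKM in vehicle, histidine, 6-MP and combined, with 56, 45, 64 and 124 reads. Its level in the combined library was 2.30-fold that in 6-MP (log2 ratio of reads 1.20 [0.76 to 1.66]), 3.31-fold that in histidine (1.73 [1.22 to 2.25]) and 2.46-fold that in vehicle (1.30 [0.83 to 1.78]). Since its mean FPKM was under 1, it was not counted among the tested genes, and it was singled out after its values had been seen. It passed the limit of 1 FPKM in the combined library only.

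BRD2 and BRD3 bind acetylated histones through paired bromodomains. BRD2 had 28.3, 26.8, 28.1 and 23.1 FPKM in vehicle, histidine, 6-MP and combined, with a log2 ratio of reads of -0.29 [-0.36 to -0.22] against 6-MP. BRD3 had 19.4, 20.3, 19.9 and 17.8 FPKM. Both were lowest in the combined library, as were 28.8% of all tested genes, and their sum was 47.6, 47.1, 48.0 and 40.9 FPKM. HLA-DMA, which overlaps BRD2 on the opposite strand, had 6.87, 6.36, 7.501 and 17.3 FPKM, and its part in the value of BRD2 was not tested.

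**Figure D4:**
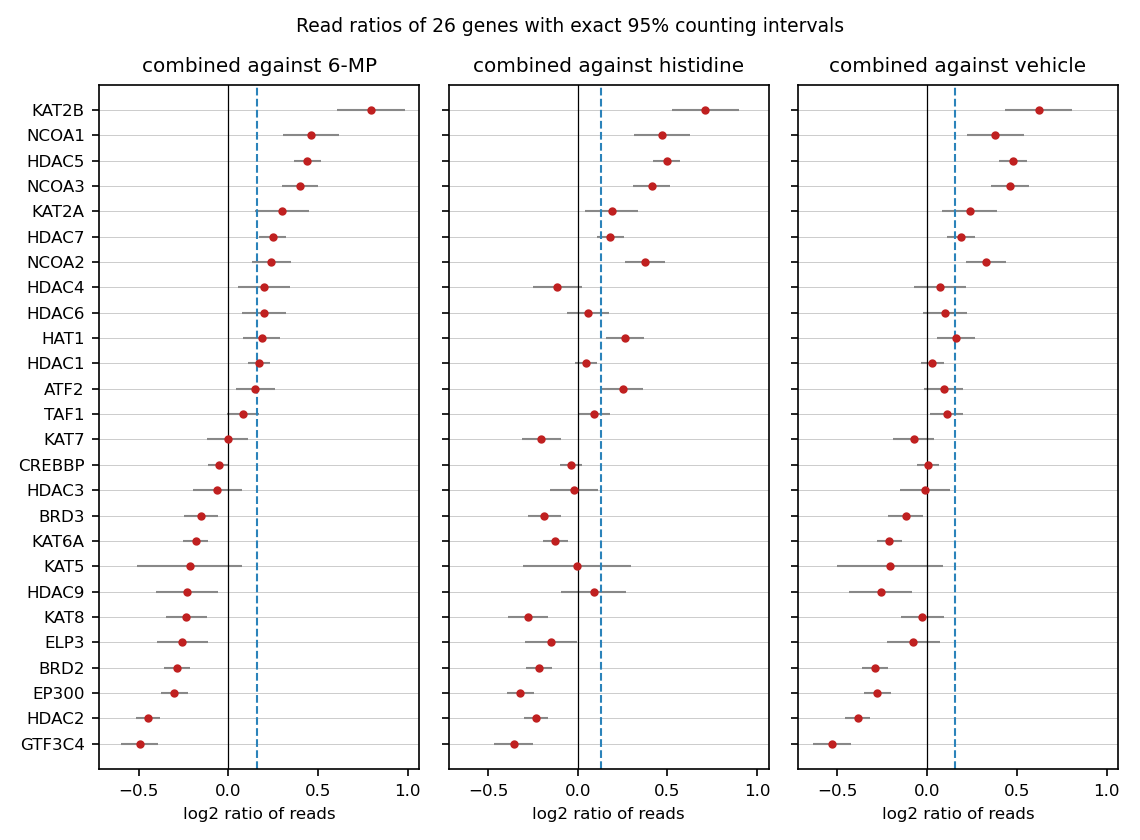
log2 ratio of reads in the combined library against 6-MP, histidine and vehicle for the 26 genes (points) with exact 95% counting intervals (bars), with the dashed line at the ratio of the median tested gene. KAT2B, NCOA1, NCOA3 and HDAC5 lie above the dashed line in all 3 panels, and GTF3C4, HDAC2, EP300 and BRD2 lie below it.

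The combined library was the highest of the 4 for 12 of the 26 genes, beside 53.8% of all tested genes. It was the lowest for 11, beside 28.8% of all tested genes, and 42.3% of the 26 genes were thus in that group. The 12 were KAT2A, KAT2B, HAT1, NCOA1, NCOA2, NCOA3, TAF1, ATF2, HDAC1, HDAC5, HDAC6 and HDAC7. The 11 were KAT5, KAT6A, KAT7, KAT8, EP300, GTF3C4, ELP3, HDAC2, HDAC3, BRD2 and BRD3. None of these 11 lay below every other library by 0.5, beside 4.53% of all tested genes. CREBBP, HDAC4 and HDAC9 lay within the range of the others. Under the scalings tried, 24 of the 26 genes kept the sign of the difference against 6-MP, 20 against histidine and 18 against vehicle. TAF1 lost it in all 3. A scaling moves all genes of a library alike, and a filter or pseudocount cannot change a sign.

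The median tested gene had a log2 ratio of reads of 0.16 against 6-MP, 0.13 against histidine and 0.16 against vehicle, and each of the 26 genes was set against it. The interval of the ratio lay wholly above that of the median gene for 5 of the 26 genes against 6-MP, for 7 against histidine and for 5 against vehicle, beside 29.5%, 30.4% and 30.1% of all tested genes. It lay wholly below for 13, 13 and 14 genes, beside 31.6%, 31.1% and 30.8%. These counts were 50%, 50% and 53.8% of the 26 genes. KAT2B, HDAC5, NCOA1 and NCOA3 were above in all 3 comparisons. BRD2, BRD3, CREBBP, ELP3, EP300, GTF3C4, HDAC2, HDAC3, KAT6A, KAT7 and KAT8 were below in all 3. The counts take no account of expression level.

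With either agent alone, the 26 genes stayed close to vehicle. None was called higher or lower for histidine against vehicle, beside 2.93% and 1.93% of all tested genes, or for 6-MP against vehicle, beside 2.28% and 2.44%. No gene reached a difference of 1, beside 1.33% and 1.18%. For histidine the fold changes ran from -0.24 (HDAC9) to 0.24 (KAT8) with a median of -0.0055, and for 6-MP from -0.14 (KAT2B) to 0.20 (KAT8) with a median of -0.013. Read intervals lay above the median gene for KAT7, KAT8 and HDAC4 with histidine, 3 of 26 beside 10.5%, and for KAT8 and ELP3 with 6-MP, 2 of 26 beside 9.43%. They lay below for ATF2, BRD2, GTF3C4, HAT1, HDAC2, HDAC9 and KAT6A with histidine, 7 of 26 beside 11.4%, and for HDAC1 with 6-MP, 1 of 26 beside 8.49%. Among these was HDAC9, with 625 reads in vehicle and 532 in histidine (log2 ratio -0.35 [-0.52 to -0.18]).

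Departure from additivity was taken as the log2 difference that histidine made in the presence of 6-MP, less the difference that it made without 6-MP. KAT2B departed by 0.76, the only one of the 26 at 0.5 or above, beside 18.8% of all tested genes. No gene departed by -0.5 or below, beside 8.49% of all tested genes. The next largest values were 0.46 for NCOA1, 0.44 for HDAC5 and -0.46 for KAT8, and HDAC11 stood at 0.83 below the limit on FPKM. The median was 0.034 for the 26 genes and 0.11 for all tested genes. For KAT2B, the value combines 2 small negative differences with a single agent (-0.07 with histidine and -0.14 with 6-MP, neither beyond counting error) and 1 positive difference with both (0.54).

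The partners of these enzymes were read from lists of 138 genes, of which 135 were in the table and 128 were tested. The lists hold subunits of deacetylase and of acetyltransferase complexes, other acetyl readers, other acetyltransferases and genes of acetyl-CoA supply. Against 6-MP, 13 of the 128 were called higher and 8 lower. The counts were 14 and 9 against histidine and 14 and 8 against vehicle. For histidine alone none was called, and for 6-MP alone only ELP5, an Elongator subunit, with 5.88 FPKM in vehicle and 10.0 in 6-MP. Among all tested genes, higher and lower calls made up 19.3% and 6.88% against 6-MP, 17.8% and 7.53% against histidine, 19.7% and 7.37% against vehicle, 2.93% and 1.93% for histidine alone and 2.28% and 2.44% for 6-MP alone.

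Of the 53 tested subunits of the acetyltransferase complexes, 3 were set apart above every other library and 2 below, beside 13% and 4.53% of all tested genes. SGF29, a reader of methylated histone H3 in SAGA, the complex of KAT2A and KAT2B, had 3.98, 4.20, 4.11 and 11.7 FPKM in vehicle, histidine, 6-MP and combined. ING4, a subunit of the KAT7 complex, had 16.2, 16.9, 18.0 and 34.2 FPKM. RUVBL1 and RUVBL2, paired ATPases of the KAT5 complex, were lower instead, RUVBL1 with 24.3, 24.2, 23.2 and 11.3 FPKM and RUVBL2 with 70.6, 71.0, 69.1 and 43.7 FPKM. Of the 53 tested genes of this list, 5 were called higher and 3 lower against 6-MP, with a median of 0.06, beside 19.3% higher, 6.88% lower and a median of 0.13 for all tested genes.

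Among the 33 deacetylase complex subunits, 3 were called higher and 2 lower in each comparison with the combined library. Their median was -0.14 against 6-MP, -0.08 against histidine and -0.04 against vehicle. The medians of all tested genes against histidine and vehicle were 0.11 and 0.13. All tested genes again had 19.3% higher, 6.88% lower and a median of 0.13 against 6-MP, and the same values apply to the lists that follow. KDM1A, the demethylase that shares the CoREST complex with HDAC1 and HDAC2, had 75.5, 77.0, 83.3 and 45.4 FPKM. The acetyl-CoA list had 1 of 11 genes higher and 2 lower against 6-MP, with a median of -0.28. ACLY, which makes acetyl-CoA from citrate in the cytosol, had 98.6, 98.9, 96.4 and 48.2 FPKM. DLAT, a core subunit of pyruvate dehydrogenase, had 14.7, 14.9, 15.0 and 8.92 FPKM. Of the 26 other readers, 3 were higher and none lower against 6-MP, among them SP110, a nuclear body protein, with 3.37, 3.25, 3.45 and 6.07 FPKM. Of the 6 other acetyltransferases, ESCO2, which acetylates cohesin, was higher (6.65, 5.85, 6.25 and 11.1 FPKM) and NAT10, which acetylates RNA, was lower (35.7, 37.4, 35.8 and 22.5 FPKM).

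**Figure D5:**
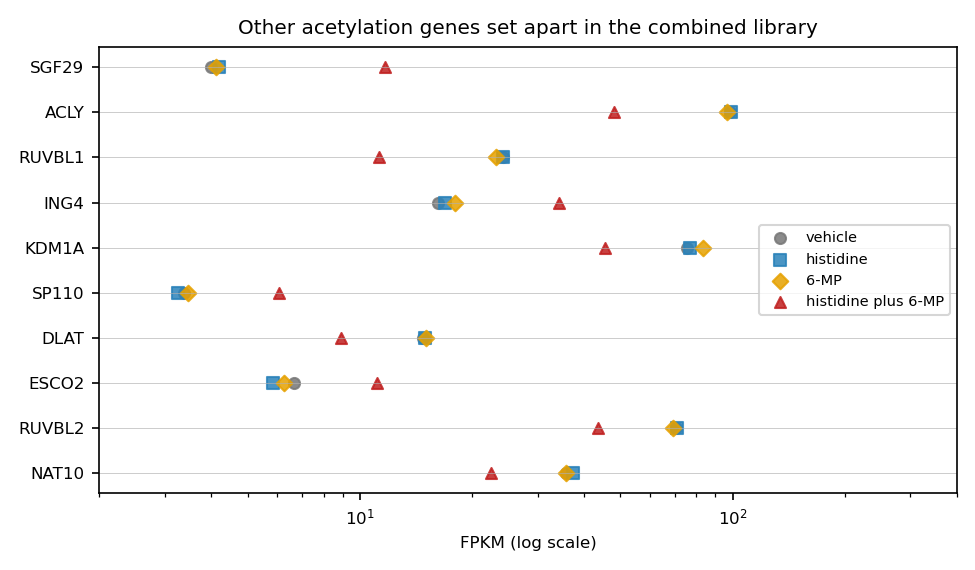
FPKM (log scale) in the 4 libraries of the 10 genes from the lists of partners with the combined library set apart by most. SGF29, ING4, SP110 and ESCO2 lie to the right of the other libraries and ACLY, RUVBL1, KDM1A, DLAT, RUVBL2 and NAT10 to the left.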

How the data were processed

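RNA-seq of Reh-6-MPR cells comprised 4 libraries, 1 for each treatment, made with a stranded poly(A) mRNA kit. The authors deposited FPKM values for 29833 genes, quantified by a service company. The submitters' processing notes name Trimmomatic, HISAT2, Cufflinks and HTSeq and the build hg38 (GRCh38). The strand setting and annotation release used for counting are not given in the sources used here. Reads were recovered from the steps between the deposited FPKM values, since each read adds the same amount to a gene within a library. They came out whole within 0.01 read for 29833 of 29833 genes, the shared denominators giving the depths in the text, and for 2793 genes the shortest length that could be fitted was multiplied to come near the GENCODE 29 length. The recovered reads summed to 99.3% to 99.4% of the denominators. On simulated data, reads were recovered for 99.6% of 28169 genes and 100% of the 30 acetylation genes. The same lengths were used to make and to recover the simulated reads. The simulation therefore could not show a wrong multiple where the authors' annotation differs.

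Fold changes were differences of log2(FPKM + 1) for genes averaging 1 FPKM or more over all libraries, called at 0.5 and also counted at 1. No test was possible with 1 library per treatment, and the authors' DESeq2 test was therefore left out. Intervals are exact Clopper-Pearson 95% intervals on recovered reads, covering counting error only. FPKM moves with library composition, since a few abundant genes shift all others.

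The 30 genes, the lists of partners and the threshold were chosen with earlier results of these data known. Full values are given for members past 0.5 in any comparison and for the highest member of each role group, and from the lists for at most 10 genes with the combined library apart from all others by at least 0.5 and the largest smallest difference. Beyond this rule, GTF3C4, HDAC2, EP300, NCOA1, NCOA2, HDAC11 and ELP5 are given with reads or intervals, and HDAC9 and ELP3 with 1 interval each, chosen after their values had been seen, as were the overlapping genes. The comparison of read intervals with the median gene and the log2 ratio of reads as an alternative were chosen after seeing the data. Alternatives were a pseudocount of 0.1, no filter, a limit of 5 FPKM on the mean, scaling by median ratios, scaling to the same total FPKM and a threshold of 1. Promoter sequences came from RefSeq (GRCh38.p14). Scripts ran under Python 3.11.15 with scipy 1.17.1, numpy 2.4.6, matplotlib 3.10.9 and pandas 2.3.3. A further reader and a further marker are not reported here.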

Additional observations from a re-analysis of the deposited data

Results flagged for a closer look

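For KAT2B, the sign of the fold change with histidine differed with and without 6-MP. Histidine alone gave a log2 fold change of -0.07 against vehicle, with a log2 ratio of reads of -0.09 [-0.29 to 0.11], so that no lower level with histidine alone was detectable beyond counting error. Histidine added to 6-MP gave 0.69 against 6-MP alone, a difference of 0.761. With 1 library for each treatment this difference was not tested. Among all tested genes, 18.8% had a difference of at least 0.5 in this direction.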

How the results depend on the processing

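No paired analysis was possible because the 4 treatments have 1 library each, and leaving out a replicate did not apply. Shares of all tested genes set apart (13% above, 4.53% below) or departing from additivity (18.8% and 8.49%) are given for the main settings only. The counts of these 2 measures under the alternatives therefore have no background beside them, and nothing is read from their change. The percentages in brackets below are for the comparisons between libraries. Without a filter on low values, HDAC11 joined KAT2B and the count past 0.5 was 2 in each of the 3 comparisons with the combined library, 2 for genes set apart and 2 for departure from additivity (all genes past 0.5 in either direction: 18.3%, 18.1% and 19% against 6-MP, histidine and vehicle). With a pseudocount of 0.1 the count was 2 against vehicle (GTF3C4 added) and 2 for additivity (NCOA1 added at 0.54), and the partners past 0.5 with 6-MP alone were 2 (all genes: 33.6%, 32.5% and 34.4% in the 3 comparisons with the combined library and 8.21% with 6-MP alone). Scaling by median ratios changed most. It gave 3 genes against 6-MP (KAT2B, GTF3C4 and HDAC2), 2 against vehicle (GTF3C4 and HDAC2), 0 set apart and 2 departing from additivity (KAT8 added at -0.57), and it moved the medians to -0.097 against 6-MP, -0.095 against histidine and -0.13 against vehicle (all genes past 0.5: 24.4%, 24.1% and 25.6%). The medians of all tested genes moved down as well, from 0.13, 0.11 and 0.13 to 0.005, -0.001 and -7.4e-05. This scaling divided the combined library by 1.084, and vehicle, histidine and 6-MP by 0.972, 0.989 and 0.978. It thereby lowers every value of the combined library against the others. Why the combined library stood apart in scale was not tested. At a threshold of 1 the counts were 0 against 6-MP, 0 against histidine, 0 against vehicle, 0 set apart and 0 for additivity, and those of the partners were 1, 3 and 4 in the 3 comparisons with the combined library and 0 with 6-MP alone (all tested genes: 6.02%, 5.55%, 6.53% and 1.18%). No called value changed sign. Of 150 single values per alternative, 55 moved by more than their counting error under median-ratio scaling and 6 as log2 ratios of reads. With a pseudocount of 0.1, 4 moved, and with scaling to the same total FPKM none did. The filters on FPKM and the threshold cannot move a single value. Depth limits the genes with few reads, such as HDAC10 with 9 to 25, HDAC11 with 45 to 124 and KAT5 with 171 to 236.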
